A study of Homo sapiens with 6 samples.

Results

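Mitochondrial fatty acid oxidation was followed through 34 genes chosen by name: those of the carnitine shuttle, the beta-oxidation enzymes, the flavoprotein electron carriers, ketone and peroxisomal steps, and a pair of PPAR regulators. All 34 were listed among the 57819 genes of the deposited table, and 31 had enough reads to be tested. Long-chain fatty acids enter the mitochondrial matrix as carnitine esters, and CPT1 at the outer membrane is the regulated step, inhibited by malonyl-CoA. Inside, repeated rounds of dehydrogenation, hydration, dehydrogenation and thiolysis shorten the chain and release acetyl-CoA, with electrons passed on through ETF. PPARs are lipid-activated nuclear receptors that switch on many of these genes, and senescent fibroblasts are known for altered lipid use.

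The RNA came from IMR90 human lung fibroblasts carrying ER:Ras, a fusion of oncogenic Ras with the ligand-binding part of the estrogen receptor. All 6 libraries were of cells given 200 nM 4-hydroxytamoxifen (4OHT), which turns the fusion on, for 3 days, so none is of uninduced cells. The series title calls the cells senescent, which was not tested here. Control cells (n = 3) received a scrambled siRNA, siSCR, and knockdown cells (n = 3) siRNA to sin-lncRNA, a long noncoding RNA. The comparison asks what loss of this lncRNA changes in these cells. The labels name 1 siRNA arm and do not say whether replicates were separate cultures, so p-values measure the spread between these libraries, which may be technical.

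Libraries held 22117324 to 27882280 reads in genes after knockdown and 30271192 to 50913672 in controls, so depth moved with the group. The target, listed as RP4-530I15.6, stood at 3.70, 4.73 and 4.09 RPM (reads per 1000000 of the authors' effective library size) in controls and 0.493, 0.640 and 0.534 after knockdown. All 9 fibroblast markers were present at 27.9 RPM or more in every library. Their summed level was 15548 to 16771 RPM in controls and 11203 to 11609 after knockdown, with 4 of the 9 higher and 5 lower. The 6 epithelial markers reached at most 0.533 RPM, with KRT5 at 0 throughout, and summed to 0.441 to 0.566 RPM in controls and 0.314 to 0.570 after knockdown. The 3 endothelial markers matched (all but PECAM1) reached 6.36 RPM and summed to 6.93 to 7.87 in controls and 7.80 to 8.71 after knockdown, with 1 called higher. The 5 leukocyte markers reached 0.214 RPM and summed to 0.133 to 0.206 in controls and 0.171 to 0.314 after knockdown. The part of these shifts in the results below was not tested. In bulk RNA, fewer cells of a type and less RNA per cell cannot be told apart.

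Fatty acid oxidation genes leaned lower after knockdown: 25 of the 31 tested had a negative log2 fold change (80.6%) and 6 a positive one, where 55.1% of all genes tested were negative. CPT1A, CRAT, the isomerases ECI1 and ECI2, ACAT1 and PPARD were among the genes that fell, and CPT2 rose. Of the 31 tested genes, 13 were lower and 1 was higher (limma, Benjamini-Hochberg adjusted p under 0.05 over all 19048 genes tested), and 17 did not pass. As a background, 41.0% of all genes tested were called in either direction, against 45.2% of these 31, so the share called was close to that of the transcriptome. By direction, 23.5% of all genes tested were lower and 17.5% higher. Among protein-coding genes the share was 48.6% in either direction and 26.4% lower, beside 41.9% lower for the 31. The median log2 fold change was -0.11 over the 31 genes and -0.04 over all genes tested. It was -0.16 without knockdown replicate 3 and -0.15 without control replicate 2. Changes were small, with a median size of 0.27 (log2) among the 14 called genes and 0.39 among all called genes. In 15 genes the 3 knockdown libraries all lay below the 3 controls, and in 2 all above, where 28.5% and 22.6% of all genes tested did. Without control replicate 3, the deepest library, 10 of the 31 were called (32.3%), all of them among the 14, beside 5803 of all genes tested (30.5%).

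**Figure D1:**
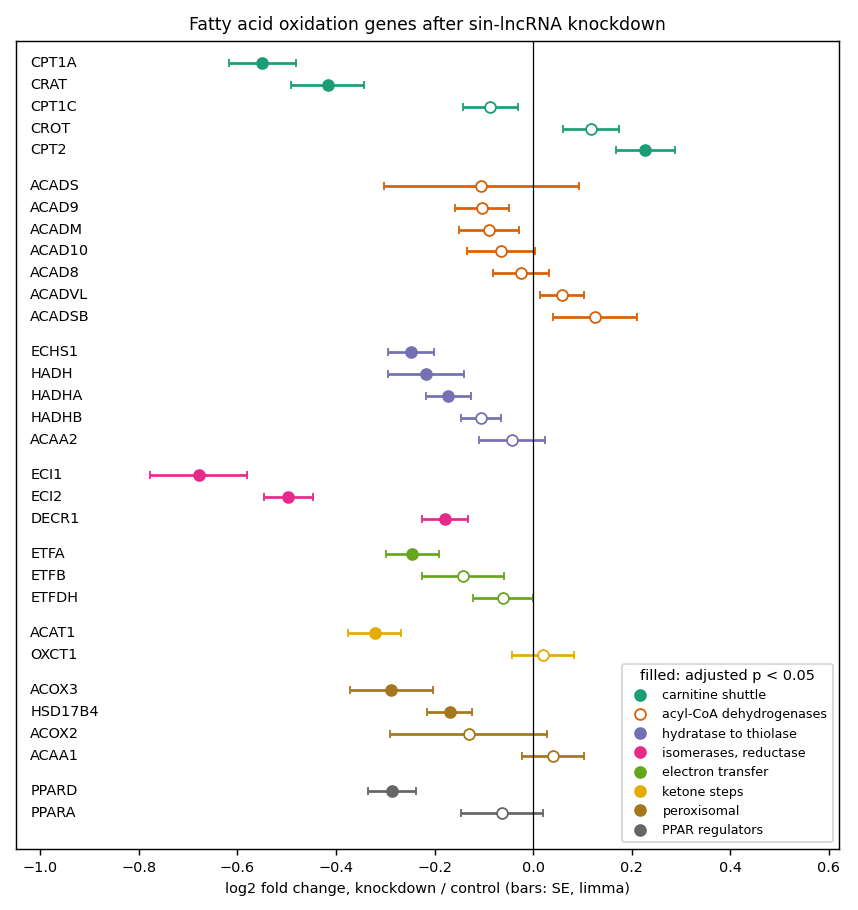
Log2 fold change (x axis, knockdown over control, bars SE) of the 31 tested genes, grouped and coloured by role; filled points passed an adjusted p of 0.05 in limma. ECI1, CPT1A and ECI2 lie farthest to the left, CPT2 is the filled point on the right, and all 7 acyl-CoA dehydrogenases are open.

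Summed over all 34 genes, the level was 1525, 1509 and 1537 RPM in controls and 1362, 1359 and 1393 after knockdown. The knockdown sums were all below the control sums, at 90.0% of the control mean. The isomerases and reductase for unsaturated chains kept 77.9% of their control sum, the carnitine shuttle 87.9% and the acyl-CoA dehydrogenases 101.1%. Such sums follow the most abundant genes: ACADVL alone held 181 of the 307 RPM in the control mean of the dehydrogenases. Of the 7 dehydrogenases tested, 5 had a negative log2 fold change and 2 a positive one (median -0.06).

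The carnitine shuttle split. CPT1A, the widely expressed liver form of CPT1, stood at 57.2, 61.5 and 60.6 RPM in controls and 42.8, 36.7 and 43.4 after knockdown. Every knockdown library was below every control. The change was -0.55 on the log2 scale (SE 0.07; limma adjusted p = 0.000102), from 59.8 ± 2.3 to 40.9 ± 3.7 RPM (SD, n = 3). CPT2, the inner-membrane enzyme that returns the acyl group to CoA, stood at 19.1, 18.8 and 18.2 RPM in controls and 21.2, 22.2 and 22.4 after knockdown. It was the single gene of the 31 called higher, with every knockdown library above the controls. Its log2 fold change was 0.23 (SE 0.06; limma adjusted p = 0.011). CPT2 lies on chromosome 1 from 53662101 to 53679869 and CPT1A on chromosome 11 from 68522088 to 68611878, in the hg19 coordinates of the table.

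The CPT2 rise was the less firm of the pair. In limma it lost its call without control replicate 3 (adjusted p = 0.057) and after GC and length trends were removed (log2 fold change 0.12, adjusted p 0.148), and with libraries thinned to equal depth (0.16, adjusted p 0.0795). CPT2 also shares 11.96% of its exon bases with opposite-strand genes, of which C1orf123 went from 16.2 ± 0.5 to 20.2 ± 1.2 RPM (SD, n = 3; log2 fold change 0.31). The counting's strand setting is not given in the sources used here, so reads from the shared stretch cannot be assigned, and their part in the CPT2 value was not tested. CPT1A shares no exon bases with another gene.

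The windows around the annotated starts of CPT1A and CPT2 are shown because the genes act in sequence and moved in opposite directions. Each runs from 250 bases before the start to 50 bases after it (RefSeq, GRCh38.p14), and capitals mark the 50 bases from the start onward. The CPT1A window is chr11:68844228-68844527 on the minus strand, and that of CPT2 is chr1:53196574-53196873 on the plus strand.
CPT1A: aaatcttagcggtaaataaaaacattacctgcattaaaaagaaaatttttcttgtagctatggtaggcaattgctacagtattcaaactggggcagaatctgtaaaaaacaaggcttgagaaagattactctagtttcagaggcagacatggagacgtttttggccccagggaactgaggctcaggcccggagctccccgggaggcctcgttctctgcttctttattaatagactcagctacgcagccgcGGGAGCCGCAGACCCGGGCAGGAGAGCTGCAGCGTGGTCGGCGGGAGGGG
CPT2: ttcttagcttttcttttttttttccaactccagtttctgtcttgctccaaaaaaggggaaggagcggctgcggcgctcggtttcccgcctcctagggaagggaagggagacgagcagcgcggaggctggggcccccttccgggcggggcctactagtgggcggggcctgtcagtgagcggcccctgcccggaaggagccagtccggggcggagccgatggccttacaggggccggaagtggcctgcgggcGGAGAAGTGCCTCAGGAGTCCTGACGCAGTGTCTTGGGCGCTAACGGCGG
The CPT1A window is 50.0% G or C with 13 CpG dinucleotides, and the CPT2 window 65.0% with 23. The median over the 37 windows of 27 matched genes was 68.0% and 27, and over all 35116 windows listed it was 58.7% and 14.

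CPT1C, the neuronal form whose catalytic activity is low, had 47.3, 42.2 and 46.2 RPM in controls and 42.5, 43.0 and 42.0 after knockdown. The groups overlapped, and the log2 fold change of -0.09 (SE 0.06) did not pass. The ratio of CPT1A to CPT1C per kb of exon was 1.08, 1.302 and 1.17 in controls and 0.898, 0.762 and 0.922 after knockdown. It fell by 0.46 on the log2 scale whichever length was used, but which form ranks first depends on that length: per kb of longest transcript the ratio was below 1 in all 6 libraries, between 0.481 and 0.822. CPT1A reads were 3.00, 3.27 and 3.32 times those of CPT2 in controls and 2.02, 1.66 and 1.93 times after knockdown. Both ratios separated the groups, with an exact two-sided permutation p of 0.1, the smallest that 3 against 3 libraries can give (0.167 after Benjamini-Hochberg adjustment over 5 ratios). CPT1B, the muscle form, had 0 to 3 reads per library and was not tested. It shares 66.4% of its exon bases with the read-through gene CHKB-CPT1B, which is listed at 0. Reads from the shared stretch cannot be assigned, so the low counts do not show that CPT1B is absent.

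CRAT, which exchanges short acyl groups between CoA and carnitine, stood at 63.2, 51.2 and 60.2 RPM in controls and 41.4, 45.2 and 43.7 after knockdown. The groups did not overlap, although control replicate 2 was nearer the knockdowns than the other controls were. The log2 fold change was -0.42 (SE 0.07; limma adjusted p = 0.0012), and CRAT lies on chromosome 9 from 131857089 to 131873468. On the opposite strand CRAT overlaps PPP2R4, which was also lower (log2 fold change -0.46), though just 2.87% of CRAT exon bases are shared with other genes. CROT, the peroxisomal octanoyl transferase, had all knockdown libraries above the controls, but its log2 fold change of 0.12 (SE 0.06) did not pass (adjusted p in limma, 0.122). Under quantile normalization it did (0.16, adjusted p in limma 0.0456).

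**Figure D2:**
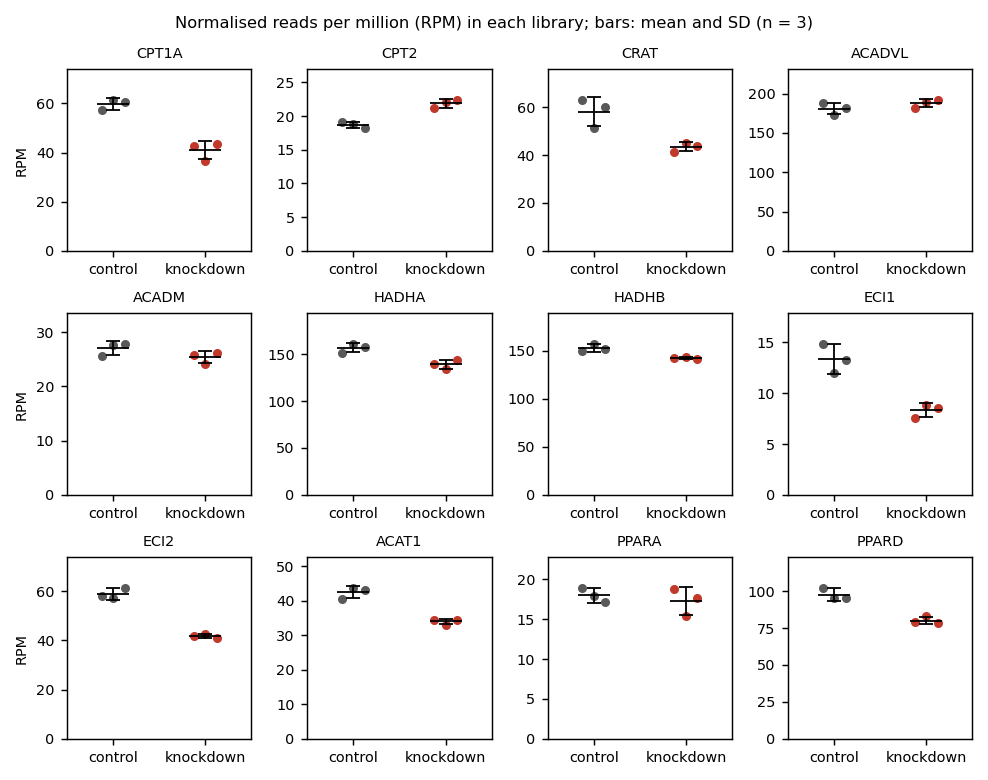
RPM in each library (points, y axis from 0) for the 12 genes described library by library, with the mean and SD (n = 3) of controls in grey and knockdowns in red. CPT1A, CRAT, ECI1, ECI2, ACAT1, HADHA, HADHB and PPARD have all knockdown points below the control points, CPT2 has them above, and ACADVL, ACADM and PPARA overlap.

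The acyl-CoA dehydrogenases catalyse the first step of each round, each for its own chain length or branching. Of the 7 tested, 0 passed in limma, 0 had an unadjusted p under 0.05 and 0 passed with voom. ACADVL, for very long chains, stood at 188, 173 and 181 RPM in controls and 182, 189.7 and 192 after knockdown. Those groups overlapped, at a log2 difference of 0.06 (SE 0.04; limma adjusted p = 0.334). ACADM, for medium chains, stood at 25.5, 27.6 and 27.9 RPM in controls and 25.9, 24.2 and 26.1 after knockdown. Here too the groups overlapped, at a log2 difference of -0.09 (SE 0.06; limma adjusted p = 0.275). The other 5 ran from a log2 fold change of -0.11 for ACADS, the short-chain enzyme, to 0.13 for ACADSB, which acts on short branched chains. Between them were ACAD9, also an assembly factor of complex I (-0.10), ACAD10 (-0.06) and ACAD8, of valine breakdown (-0.02). Of the 7, ACADS had the widest error, with 38 to 111 reads per library and an SE of 0.20. After GC and length trends were removed ACADVL alone passed, at 0.16 (adjusted p in limma, 0.0166).

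A pair of dehydrogenases could not be assessed. ACADL had 0 reads in every library, which allows up to 0.0589 to 0.136 RPM depending on depth, for counting error only. ACAD11 had 0 to 4 reads, and 83.8% of its exon bases are shared with other genes, so its reads cannot be assigned.

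Of the 5 enzymes that complete each round, 3 were lower. HADHA carries the hydratase and long-chain hydroxyacyl dehydrogenase of the trifunctional protein, and HADHB its thiolase. HADHA stood at 152, 161 and 157 RPM in controls and 140.0, 134 and 144 after knockdown. HADHB stood at 149, 157 and 152 RPM in controls and 142, 143 and 141 after knockdown. In both genes every knockdown library was below every control, by a small margin. The log2 fold change was -0.17 for HADHA (SE 0.04; limma adjusted p = 0.010) and -0.11 for HADHB (SE 0.04; limma adjusted p = 0.058). HADHA lost its call under eBayes without a trend (adjusted p in limma, 0.0555), and HADHB gained one without control replicate 1 (0.0446), with a filter at 50 mean reads (0.0465) and after GC and length trends were removed (0.00729). The difference between the genes was itself within the spread: the ratio of HADHA to HADHB per kb of exon was 0.991, 1.00 and 1.01 in controls and 0.961, 0.917 and 0.993 after knockdown (exact permutation p = 0.2, adjusted over 5 ratios 0.25).

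HADHA and HADHB are transcribed away from each other, and the HADHB window is shown because it overlaps that of HADHA. Their RefSeq starts are 307 bases apart. The HADHB window is chr2:26244689-26244988 on the plus strand of GRCh38.p14, and capitals mark the 194 bases that also lie in the HADHA window, chr2:26244583-26244882 on the minus strand.
HADHB: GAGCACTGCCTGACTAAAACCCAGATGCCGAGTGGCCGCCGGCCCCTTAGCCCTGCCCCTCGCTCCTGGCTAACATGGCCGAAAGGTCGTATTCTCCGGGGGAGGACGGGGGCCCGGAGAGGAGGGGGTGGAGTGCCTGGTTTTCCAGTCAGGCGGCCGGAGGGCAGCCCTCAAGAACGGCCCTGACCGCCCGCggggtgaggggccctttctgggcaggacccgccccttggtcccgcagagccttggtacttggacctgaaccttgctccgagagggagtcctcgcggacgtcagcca

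ECHS1, the short-chain hydratase, was the most abundant of the 31 genes per kb of exon in controls, a rank that depends on the length used. It went from 96.8 ± 2.4 to 81.5 ± 2.9 RPM (SD, n = 3), which is a log2 change of -0.25 (SE 0.05; limma adjusted p = 0.0015), with no overlap between the groups. Removal of GC and length trends left -0.11 and no call (adjusted p in limma, 0.0924). HADH, the medium- and short-chain hydroxyacyl dehydrogenase, fell from 14.9 ± 1.1 to 12.8 ± 0.5 RPM (SD, n = 3; log2 fold change -0.22, SE 0.08; limma adjusted p = 0.042). Its call was lost in 5 of the 6 fits that left out 1 library, all but that without control replicate 2 (adjusted p in limma, 0.0654 to 0.131), and with the replicate number as a block (0.0641). It was also lost under the 3 other scalings (adjusted p in limma, 0.0608 to 0.0805), with no filter (0.0528) and under eBayes without a trend (0.0666). ACAA2, the mitochondrial thiolase, had -0.04 (SE 0.07) and did not pass.

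All 3 auxiliary enzymes for unsaturated chains were lower. ECI1 and ECI2 are isomerases that shift a double bond into the position the hydratase needs, and DECR1 is the dienoyl-CoA reductase. ECI1 stood at 14.9, 11.99 and 13.3 RPM in controls and 7.57, 8.88 and 8.55 after knockdown. ECI2 stood at 57.9, 57.1 and 61.5 RPM in controls and 41.8, 42.4 and 40.8 after knockdown. Both isomerases had every knockdown library well below the lowest control. The fall of ECI1 was the largest of the 31, at a log2 difference of -0.68 (SE 0.10; limma adjusted p = 0.00029), and it shares no exon bases with another gene. For ECI2 the log2 fold change was -0.50 (SE 0.05; limma adjusted p = 2.5e-05). ECI2 shares 29.8% of its exon bases with opposite-strand genes, of which C6orf201 stood at 0.178 to 0.366 RPM. ECI1 reads were 0.257, 0.210 and 0.216 times those of ECI2 in controls and 0.181, 0.209 and 0.209 times after knockdown (exact permutation p = 0.1, adjusted over 5 ratios 0.167). DECR1 fell from 59.9 ± 1.6 to 52.8 ± 1.1 RPM (SD, n = 3), which is a log2 change of -0.18 (SE 0.05; limma adjusted p = 0.011).

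In the hg19 coordinates of the table ECI1 lies on chromosome 16 from 2289396 to 2302301 and ECI2 on chromosome 6 from 4115923 to 4135831. The ECI1 window, chr16:2251538-2251837 on the minus strand of GRCh38.p14, is shown as that of the gene that fell most, with capitals for the 50 bases from the start onward.
ECI1: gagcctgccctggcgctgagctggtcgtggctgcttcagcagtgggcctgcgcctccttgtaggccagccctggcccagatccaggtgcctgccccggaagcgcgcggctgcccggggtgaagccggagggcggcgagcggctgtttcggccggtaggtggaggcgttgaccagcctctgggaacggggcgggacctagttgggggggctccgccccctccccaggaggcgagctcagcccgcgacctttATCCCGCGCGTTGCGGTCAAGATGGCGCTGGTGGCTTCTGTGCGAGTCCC
With 71.7% G or C and 27 CpG dinucleotides it holds the letters GGGCGG, which the CPT1A window does not.

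The electron carriers pass electrons from the dehydrogenases to ubiquinone: ETFA and ETFB form the soluble flavoprotein and ETFDH is its membrane-bound oxidoreductase. ETFA fell from 62.2 ± 1.9 to 52.5 ± 2.7 RPM (SD, n = 3), which is a log2 change of -0.25 (SE 0.05; limma adjusted p = 0.0039). ETFB (-0.14, SE 0.08) and ETFDH (-0.06, SE 0.06) did not pass. ETFDH shares 13.8% of its exon bases with opposite-strand genes, C4orf46 (15.5 RPM in controls, log2 fold change -0.22) and PPID (27.8, -0.14). Neither of these was called, and the part of shared reads in the ETFDH value was not tested. ETFA reads were 3.55, 4.03 and 3.76 times those of ETFB in controls and 4.03, 3.10 and 3.48 times after knockdown. These ranges overlapped, so a change in the balance of the subunits was not detectable (exact permutation p = 0.5).

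Of the ketone steps, ACAT1 was lower and OXCT1 did not pass. ACAT1, a mitochondrial acetoacetyl-CoA thiolase, stood at 40.5, 43.8 and 43.1 RPM in controls and 34.3, 33.0 and 34.5 after knockdown. No libraries overlapped, and the log2 fold change was -0.32 (SE 0.05; limma adjusted p = 0.00075). ACAT1 lies on chromosome 11 from 107992243 to 108018503. OXCT1, which activates ketone bodies for use, had 20.7 ± 0.8 RPM in controls and 20.9 ± 0.9 after knockdown (SD, n = 3).

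Peroxisomes shorten very long and branched chains before mitochondria take over. Of 4 peroxisomal genes, ACOX3, a branched-chain acyl-CoA oxidase, and HSD17B4, the bifunctional hydratase and dehydrogenase, were lower. ACOX3 had 25.1, 23.7 and 24.9 RPM in controls and 17.6, 20.7 and 22.3 after knockdown, or -0.29 on the log2 scale (SE 0.08; limma adjusted p = 0.018). HSD17B4 went from 77.1 ± 1.1 to 68.6 ± 2.3 RPM (SD, n = 3), which is a log2 change of -0.17 (SE 0.05; limma adjusted p = 0.013). Both were separated by group, but both lost their call when single libraries were left out. For ACOX3 these were control replicate 3 (adjusted p in limma, 0.0638) and knockdown replicate 1 (0.0504, with a log2 fold change of -0.19), and eBayes without a trend gave 0.0666. For HSD17B4 they were control replicate 3 (adjusted p in limma, 0.0612) and knockdown replicate 2 (0.0517). ACOX2, of bile acid and branched-chain oxidation, had -0.13 (log2; SE 0.16) from 68 to 181 reads per library, and ACAA1, the peroxisomal thiolase, had 0.04 (SE 0.06).

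Among the regulators PPARD was lower and PPARA was not called. PPARD, the widely expressed PPAR, stood at 102, 95.3 and 95.3 RPM in controls and 79.1, 82.9 and 78.2 after knockdown. All knockdown libraries were below all controls, a log2 difference of -0.29 (SE 0.05; limma adjusted p = 0.00081). PPARA, prominent in liver, stood at 19.0, 17.8 and 17.2 RPM in controls and 18.8, 15.4 and 17.6 after knockdown. The groups overlapped, and the log2 fold change was -0.06 (SE 0.08; limma adjusted p = 0.578). Without knockdown replicate 2, the lowest library for this gene, the PPARA value was 0.02. PPARD lies on chromosome 6 from 35310335 to 35395968.

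Per kb of exon the tested genes spanned a wide range in controls, from 0.762 for ACADS to 59.9 for ECHS1. Below ECHS1 came ACADVL at 37.1 ± 1.5, HADHA at 35.8 ± 1.1 and HADHB at 35.7 ± 0.9 RPM per kb (SD, n = 3), whose spreads overlap. PPARD followed at 21.9 and DECR1 at 17.1, and CPT2 was near the bottom at 1.79. CPT1A stood at 9.11 in controls and 6.24 after knockdown. Lengths are union exon lengths of GENCODE 29, so levels of genes with many long, rarely used exons are understated. ACADVL has 4865 exon bases but a longest transcript of 2352, where ECHS1 has 1617 for both. Per kb of longest transcript ACADVL would stand above ECHS1.

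**Figure D3:**
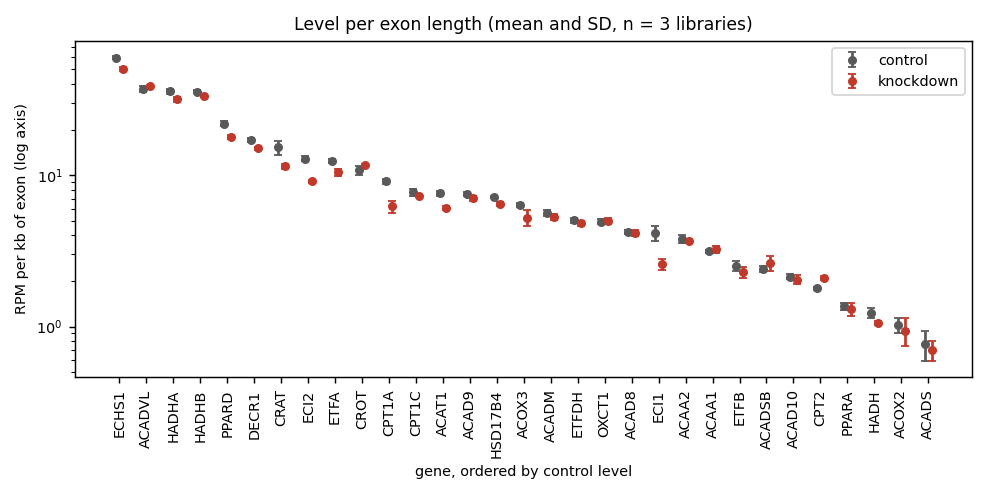
RPM per kb of exon (log y axis; mean and SD, n = 3 libraries) of the 31 tested genes in controls (grey) and knockdowns (red), ordered by control level. The order spans 0.762 to 59.9 in controls, and ECI1 and CPT1A show the widest gaps between the groups.

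Promoter letters were also searched over the 37 windows of 27 genes. ACAA1, ACAD11, ACOX2, CPT1B, CRAT, DECR1 and ETFDH had no entry. The PPAR response element was taken as 2 copies of AGGTCA with 1 base between them, and an estrogen-related receptor site as TCAAGGTCA, on both strands. The PPAR element was in 0 of the 37 windows, also with 1 mismatch allowed, and in 0.336% of all 35116 windows with that mismatch. TCAAGGTCA was in 0 of the 37 and 0.353% of all. At shares this low, 0 is the likely count for any 37 windows, so the searches cannot tell these genes from others. They also say nothing of sites beyond the windows. Other letters, chosen after results were seen, were GGGCGG, in 29 of the 37 windows (78.4%, all windows 45.0%), CCAAT (9 windows, 24.3%; all 34.6%), CACGTG (1 window, ACAD9; all 7.26%) and TATAAA (1 window, ACADVL; all 11.5%). The windows of one gene can overlap, and GC-rich windows hold GGGCGG more readily, so no more than the counts is given.

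The surrounding pathway was read from 10 lists with 132 genes beyond the 34. Of the 118 tested, 49 were lower (41.5%) and 10 higher, with a median log2 fold change of -0.15, beside 23.5% and 17.5% of all genes tested. In either direction 59 of the 118 were called (50.0%), close to the 48.6% of protein-coding genes and beside 41.0% of all genes tested. By list the share called was 38.5% for uptake, 40.0% for peroxisome, 42.9% for PPAR partners and 44.4% for thioesterases. It was 50.0% for carnitine supply and for lipolysis, and 58.8% to 66.7% for the rest. For uptake and activation of fatty acids, 5 of 13 tested genes were lower and the other 8 were not called (median -0.10). The largest falls were in FABP5, a cytosolic fatty acid carrier, from 25.2 ± 1.9 to 12.1 ± 0.6 RPM (SD, n = 3; log2 fold change -1.06), and SLC27A3, an acyl-CoA synthetase family member (-0.71). Of the carnitine supply and carrier list, 2 of 6 were lower and 1 higher (median -0.16). SLC22A4, an organic cation transporter, rose from 7.55 ± 0.21 to 12.8 ± 1.7 RPM (SD, n = 3; log2 fold change 0.76). SLC22A5, of the same family and list, was not called (log2 fold change -0.05, SE 0.10; limma adjusted p = 0.707). ALDH9A1, of carnitine synthesis, was lower (-0.26). SLC25A20, the carnitine-acylcarnitine carrier of the inner membrane, had -0.20 (limma adjusted p = 0.040). It lost that call without control replicates 2 or 3 or knockdown replicates 2 or 3 (adjusted p in limma, 0.092 to 0.144), under each other scaling (0.0581 to 0.103) and with the replicate block (0.0937). No filter, eBayes without a trend, thinning and removal of GC and length trends also ended it (0.0594 to 0.0755).

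Genes that set the malonyl-CoA brake on CPT1 moved both ways, with 3 of 9 higher and 3 lower (median -0.15). ACACB, the acetyl-CoA carboxylase that makes malonyl-CoA at mitochondria, stood at 12.8, 11.1 and 12.4 RPM in controls and 16.0, 16.3 and 16.5 after knockdown. Every knockdown library was above the controls, by 0.43 on the log2 scale (SE 0.07; limma adjusted p = 0.00088). MLYCD, which breaks malonyl-CoA down, stood at 7.69, 7.49 and 7.75 RPM in controls and 6.28, 5.63 and 5.45 after knockdown. Here all knockdown libraries were below the controls, at a log2 difference of -0.40 (SE 0.09; limma adjusted p = 0.0049). Outside these 9, ACACA, the other and more abundant acetyl-CoA carboxylase, fell from 150 ± 4 to 122 ± 8 RPM (SD, n = 3; log2 fold change -0.30; limma adjusted p = 0.00098). It was counted with fatty acid synthesis. Of the AMPK subunits, PRKAB2 (0.51) and PRKAG2 (0.24) were higher and PRKAA2 (-0.42) and PRKAA1 (-0.25) lower. PRKAA1 went from 128 ± 3 to 108 ± 5 RPM and PRKAA2 from 6.93 ± 1.19 to 5.15 ± 0.52 (SD, n = 3). PRKAA2 lost its call without control replicates 1 or 2 or knockdown replicates 2 or 3 (adjusted p in limma, 0.0516 to 0.0962), under quantile normalization (0.0555), under eBayes without a trend (0.0712) and with the replicate block (0.0504).

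Of 8 lipolysis and lipid droplet genes tested, 4 were lower and 4 not called (median -0.26). MGLL, the monoacylglycerol lipase, fell from 126 ± 2 to 79.1 ± 3.2 RPM (SD, n = 3; log2 fold change -0.67). PLIN2, a droplet coat protein, fell from 68.1 ± 2.6 to 51.6 ± 0.7 RPM (SD, n = 3; log2 fold change -0.40). The lipase PNPLA2 went from 35.0 ± 7.2 to 27.2 ± 2.1 RPM (SD, n = 3; log2 fold change -0.35), near the threshold (limma adjusted p = 0.045). G0S2, an inhibitor of the lipase PNPLA2, had -0.62 on 27 to 114 reads per library. Its call was lost without control replicates 1 or 3 or knockdown replicates 1 or 3 (adjusted p in limma, 0.0802 to 0.115), with the replicate block (0.0768), and under eBayes without a trend, thinning and removal of GC and length trends (0.0726 to 0.123).

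The list of PPAR targets, which shares CPT1A, CPT1B, HADHA, ACADVL and ACAA2 with the 34 genes, had 5 of 11 lower and 2 higher (median -0.15). ANGPTL4, a secreted inhibitor of lipoprotein lipase, stood at 61.0, 68.4 and 75.8 RPM in controls and 81.7, 107.9 and 95.4 after knockdown. Every knockdown library was above the controls (log2 fold change 0.47, SE 0.10; limma adjusted p = 0.0031). TXNIP, an arrestin-like protein also induced by glucose, had the largest fall of the list (-1.57), ahead of CPT1A. UCP3 was higher (0.87) on 11 to 21 reads per library, a call lost without control replicates 2 or 3 or knockdown replicate 2 (adjusted p in limma, 0.0525 to 0.0767). PDK4, a classical PPAR target that restrains glucose oxidation, had 0 to 2 reads per library and was not tested.

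Of 14 PPAR partners and coregulators, 4 were lower and 2 higher (median -0.03). RXRA, the partner receptor of PPARs, rose from 57.0 ± 2.5 to 72.5 ± 5.9 RPM (SD, n = 3; log2 fold change 0.35). PPARGC1B, a coactivator of oxidative genes, fell from 5.98 ± 0.74 to 3.72 ± 0.13 RPM (SD, n = 3; log2 fold change -0.67). Among the 8 not called were its relative PPARGC1A (0.01, SE 0.21), PPARG (-0.13, SE 0.09) and ESRRA (-0.25, SE 0.13). SIRT3, a mitochondrial deacylase (-0.32), kept its call without control replicate 2 but not without any other single library (adjusted p in limma, 0.0566 to 0.0864). ESRRG (0.71, on 16 to 34 reads) kept its call without knockdown replicate 1 but not without any other (adjusted p in limma, 0.0711 to 0.143). With the replicate block neither passed (adjusted p in limma, 0.0511 and 0.0677), nor after GC and length trends were removed (0.0888 and 0.091). SIRT3 also lost its call under eBayes without a trend (adjusted p in limma, 0.0589) and after thinning (0.0593).

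Of 25 further peroxisomal genes, 9 were lower and 1 higher (median -0.13). PEX19, which delivers membrane proteins to peroxisomes, fell from 81.5 ± 2.5 to 48.8 ± 3.3 RPM (SD, n = 3; log2 fold change -0.74). ABCD4, an ABC transporter that acts at lysosomes, was higher (0.32).

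**Figure D4:**
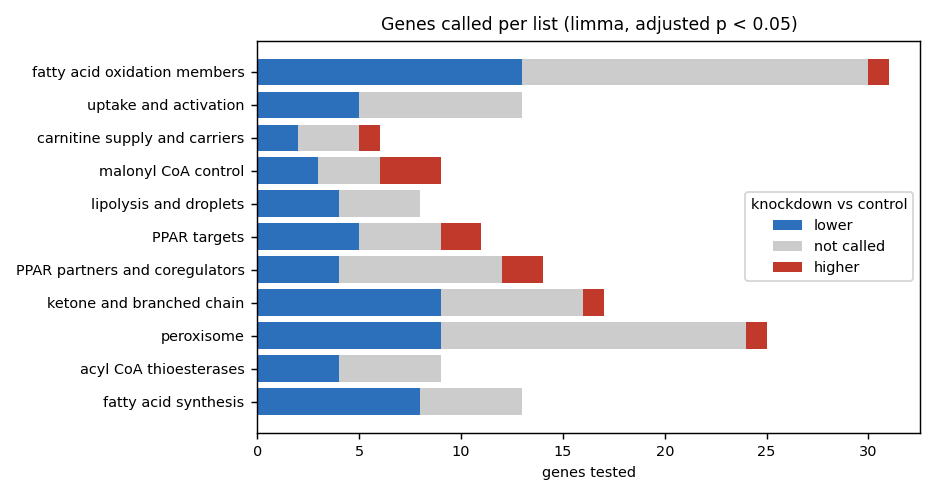
Number of tested genes called lower (blue), not called (grey) and called higher (red) after knockdown (limma, adjusted p under 0.05) among the 31 fatty acid oxidation genes and in each of the 10 lists around them. Lower calls outnumber higher ones in the top bar (13 against 1), and malonyl-CoA control has 3 of each.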

How the data were processed

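Values are polyA RNA-seq of 6 libraries, read as single 50 bp reads. Per the submitters' processing notes, Bowtie2, featureCounts and hg19 were used; strand setting and annotation release are not given in the sources used here. The authors deposited log2 values, which held log2 of reads plus 0.5 per 1000000 of an effective library size: undoing this gave whole reads (within 0.01) for 100% of values. RPM are those reads over the effective size.

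limma 3.58.1 (R 4.3.3; lmFit, eBayes with an intensity trend, two-sided) was run on the deposited log2 values for genes with a mean of at least 10 normalized reads, with group as the sole term. Fold changes carry the 0.5-read offset, which is larger in RPM in the shallower knockdown libraries. Low genes are therefore drawn toward a rise, so their falls are understated and small rises overstated. The fit was tested on simulated counts with 200 of 19048 genes changed. It called, with the right sign, 67% of genes changed by 0.5 (log2) and 90% of those changed by 1. Unchanged genes made up 1.9% of its calls. The simulation used the same spread setting for every gene and far fewer changed genes than were called in the data, so these rates may not carry over. Alternatives covered scaling, offset, read filter, variance model, replicate block, depth, GC and length, and single libraries left out. Depth was varied by a single random thinning of the reads, so values after thinning carry the error of that draw. Chi-square per degree of freedom between replicates was 2.83 to 11.1, so no libraries were duplicates.

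The 34 genes and the lists were chosen with earlier results of these data known. Library values are given for 8 fixed genes (CPT1A, CPT2, ACADVL, ACADM, HADHA, HADHB, PPARA, PPARD) and for genes called with a log2 change of 0.3 or more in size. In each list the 2 largest called rises and falls are named, plus SLC25A20, ACACB, PDK4, ANGPTL4 and PLIN2; some results under this rule are not reported here. Library values of ACOX3, CPT1C, MLYCD and some list genes were added after values were seen. ACACA, PRKAA1, PRKAG2, PNPLA2, SLC22A5, PPARGC1A, PPARG and ESRRA were also named after values were seen. Exon lengths, GC content and shared exons are from GENCODE 29 (GRCh38), matched by gene ID.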

Additional observations from a re-analysis of the deposited data

How the results depend on the processing

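Results were recomputed in 19 other fits. Of the 14 called genes, CPT1A, CRAT, ECI1, ECI2, DECR1, ETFA, ACAT1 and PPARD kept their direction and call in all 19. DECR1 did so narrowly, with an adjusted p in limma of up to 0.0499 when a library was left out. Between 10 and 14 genes were called when 1 library was dropped, beside 5803 to 7330 of all genes, and 11 to 15 in the other fits, beside 6454 to 10220. An adjusted p under 0.01 left 8 of the 14 and 5195 of all genes, a fall by construction. Those 8 include ECHS1 and not DECR1 (adjusted p in limma, 0.0108). The median log2 fold change of the 31 genes was -0.080 under quantile normalization, -0.152 with libraries thinned to the smallest total and -0.157 after GC and length trends were removed, and between -0.160 and -0.095 when single libraries were dropped. For these shifts the cause was not tested.

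Genes that reversed direction were called in neither fit: ACAD8 was 0.022 under quantile normalization and ETFDH 0.012 after thinning, a single random draw. After GC and length trends were removed, ACADS was 0.089, OXCT1 -0.058 and ACAA1 -0.016. With a library left out ACADS ran from -0.304 to 0.017, ACAD8 from -0.049 to 0.013, OXCT1 from -0.012 to 0.050, ACOX2 from -0.288 to 0.019 and PPARA from -0.128 to 0.018. Other scalings moved the median of all genes by at most 0.03. Without a filter it rose by 0.64, as genes with few or no reads entered.

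Replicate numbers did not pair the libraries: libraries of equal number had deviations with correlations of -0.15, -0.18 and 0.07. With the replicate block 13 of the 31 genes, 48 list genes and 6454 of all genes were called, against 14, 59 and 7805, and HADH was the one member lost. The count of genes without overlap was not run with trimmed-mean scaling. Low read counts limit ACADS, ACOX2, G0S2, UCP3, ESRRG, BDH1 and ACOT11.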

Other observations

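Neighbouring lipid and branched-chain pathways held more lower than higher calls, where 23.5% of all genes tested were lower and 17.5% higher. Of 17 tested ketone and branched-chain genes, 9 were lower (52.9%) and 1 higher (limma, Benjamini-Hochberg adjusted p under 0.05). Their median log2 fold change was -0.22, beside -0.04 over all genes tested. ACAT2, a cytosolic thiolase that also feeds cholesterol synthesis, fell from 57.1 ± 2.3 to 22.7 ± 0.7 RPM (SD, n = 3), which is a log2 change of -1.33. BDH1, the mitochondrial ketone body dehydrogenase, fell from 2.23 ± 0.28 to 1.06 ± 0.32 RPM (SD, n = 3), which is a log2 change of -1.09 on 21 to 111 reads per library. PCCA, a propionyl-CoA carboxylase subunit, was the gene that rose (0.33).

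Of 9 acyl-CoA thioesterases, which release free fatty acids from CoA, 4 were lower and 5 not called, with a median of -0.18. The share called, 44.4%, was close to the 41.0% of all genes tested. ACOT7 fell from 89.3 ± 6.6 to 46.6 ± 2.7 RPM (SD, n = 3; log2 fold change -0.94), and ACOT11 had -0.996 on 18 to 83 reads per library. On the synthetic side, 8 of 13 fatty acid synthesis genes were lower (61.5%) and 5 not called, with a median of -0.30. ACLY, which makes cytosolic acetyl-CoA, went from 634 ± 38 to 431 ± 22 RPM (SD, n = 3; log2 fold change -0.56). FADS2, a fatty acid desaturase, went from 456 ± 24 to 319 ± 6 RPM (SD, n = 3; log2 fold change -0.52).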
